A study of Mus musculus with 21 samples.

Results

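The 42 genes described here encode the machinery that copies DNA and supplies its nucleotides, in mouse bone marrow-derived macrophages. They were taken from a list of symbols and found by symbol, each once, among the 50645 genes of a fatty acid table and the 50644 of a Western diet table. The filter for testing asked for a deposited value of 1 or above in no fewer than 3 libraries of a table, and all 42 passed it in both. In the fatty acid table Orc1 reached 1 in untreated libraries alone, so it passed through its highest group.

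RNA was sequenced from macrophages of C57Bl6/J mice whose donor age is labelled 24 weeks, in 21 libraries that form 7 groups of 3. All cultures were grown from total bone marrow in medium with 30% L929 supernatant, a usual source of the macrophage growth factor, and donors had eaten standard chow or a Western diet for 24 weeks. The fatty acid table holds 4 groups from chow-fed donors: untreated; LPS, the bacterial lipopolysaccharide, at 100 ng/ml for 24 h from day 7; a fatty acid mix at 10 mM (1 part palmitic and 3 parts oleic) during the first 4 days and then LPS; and the same with 200 nM TAK242, an inhibitor of the LPS receptor TLR4, beside the fatty acid. The Western diet table holds untreated chow libraries numbered 4 to 6, libraries labelled Western diet without LPS, and libraries labelled Western diet with LPS. No group had fatty acid without LPS, or TAK242 without fatty acid, so the parts of these treatments cannot be told apart. Whether replicates are separate animals or cultures is not stated, and p-values measure only the spread between these samples, which may be technical.

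Before a cell copies its genome, the origin recognition complex with Cdc6 and Cdt1 loads the MCM helicase onto DNA. Cdc45 and the GINS complex then start the helicase, DNA polymerases extend from primers behind it, the clamp Pcna holds them on the template, and ribonucleotide reductase supplies deoxynucleotides. E2F factors drive many of these genes as cells enter S phase, and macrophages grown with their growth factor can divide.

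The cells had macrophage markers: the summed value of 7 such genes lay between 8726 and 10781 in the fatty acid table. Erythroid and dendritic markers summed to under 1 in every library of that table, and of the 5 progenitor markers Kit, Flt3, Cd34 and Gata2 were under 1. The other, Cd48, was not low, and the 5 progenitor markers summed to 70.2 to 94.0. Depth implied by the smallest value steps was 17.5 to 36.3 fragments in units of 1e6, and library sums were 321532 to 386023. In 3 groups, libraries stood apart or went against their label. Replicate 1 of LPS alone was the lowest of its group in 39 of the 42 genes, against 46.8% of all genes tested. In the Western diet table, 4 of the 6 libraries labelled Western diet had LPS-response genes that went against their label, as given with their results. In 15 of the 42 genes, exons overlap those of another gene, and whether counting used strand is not stated. Their values may hold reads of the neighbour: Ccne2, Cdc45, Chaf1a, Fen1, Gins2, Lig1, Mcm7, Orc1, Orc6, Pole, Rfc2, Rfc4, Rfc5, Rpa1 and Tk1.

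LPS lowered nearly the whole replication set. Of the 42 genes, 38 were lower after LPS than in untreated macrophages and 0 were higher at a limma adjusted p under 0.05, where 47.9% of the 10476 genes tested were lower and 13.8% higher. In the same 38 genes the groups did not overlap, against 50.1% of genes tested. One of the 38 is Orc1, which had to differ to pass the filter, and without it both counts were 37 of 41. Changes are log2 changes of the deposited value plus 1, which understate those of low genes. Their median over the 42 genes was -1.97, and over all genes tested it was -0.31. With median-ratio scaling of the libraries the medians were -1.58 and 0.04, the calls stayed at 38 lower, and the split of all genes moved from 1444 higher and 5019 lower to 2977 and 2705. The 42 genes made up 0.364% to 0.367% of a library's summed value untreated, and 0.0603%, 0.0896% and 0.116% in LPS replicates 1 to 3. In these bulk libraries, fewer dividing cells and less RNA per cell cannot be told apart.

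**Figure D1:**
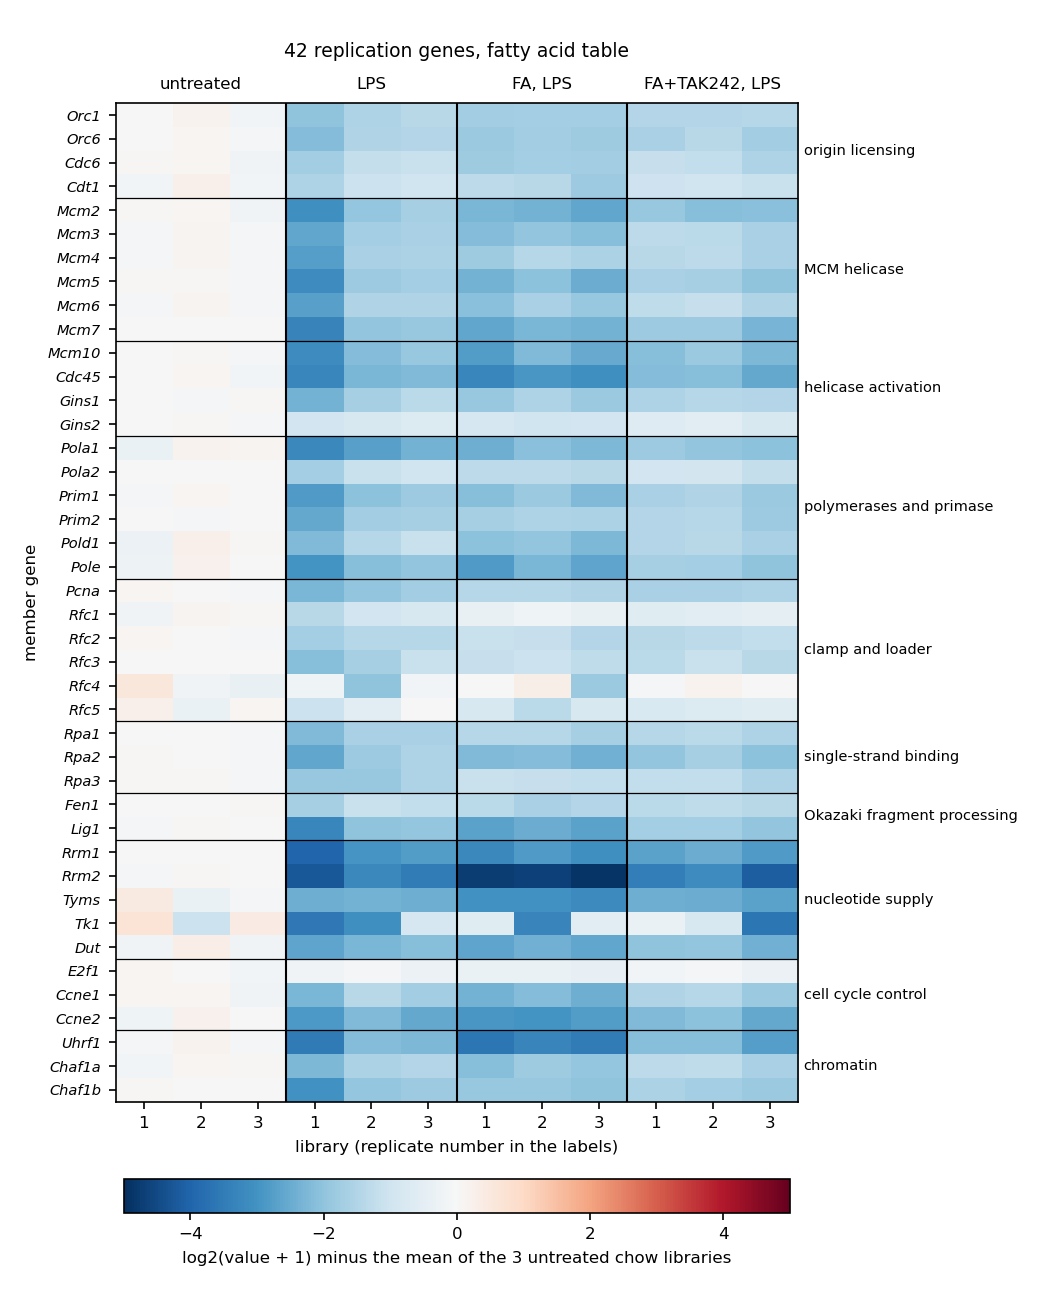
Each row is one of the 42 genes, grouped by role, and each column one of the 12 libraries of the fatty acid table. Colour is log2(value + 1) minus the mean of the 3 untreated libraries; blue fills most cells of the 9 columns with LPS, with E2f1 and Rfc4 among the palest rows, and LPS replicate 1 is the darkest of its group in most rows.

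The upstream sequences of these genes are shown because the genes fell together and E2F factors are known to act on this set. RefSeq promoters (GRCm38.p6, 250 bases before to 50 after each annotated start) were matched by symbol for 35 of the 42 genes, in 40 entries. The 4 E2F words, TTTCCCGC, TTTCGCGC, TTTGCCGC and TTTGGCGC, were searched on both strands, and a base could belong to 2 overlapping words. They occurred in 12 of the 40 entries (30.0%) and in 744 of all 32851 promoters (2.26%). The 200 bases before the start follow 5′ to 3′ on the gene's strand, with the words in capitals. For Uhrf1, which has 2 annotated starts here, the later start is shown, and the earlier one has no word.
Mcm5, chr8:75109309-75109508, plus strand: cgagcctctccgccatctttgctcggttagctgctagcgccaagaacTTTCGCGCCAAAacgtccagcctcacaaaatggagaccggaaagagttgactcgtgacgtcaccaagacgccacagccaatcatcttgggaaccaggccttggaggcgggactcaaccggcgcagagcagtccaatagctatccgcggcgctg
Mcm6, chr1:128359706-128359905, minus strand: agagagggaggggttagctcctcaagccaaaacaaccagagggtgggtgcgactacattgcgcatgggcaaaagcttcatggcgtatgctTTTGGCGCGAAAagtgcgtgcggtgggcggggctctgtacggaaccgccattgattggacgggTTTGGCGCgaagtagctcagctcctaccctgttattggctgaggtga
Pola1, chrX:93632156-93632355, minus strand: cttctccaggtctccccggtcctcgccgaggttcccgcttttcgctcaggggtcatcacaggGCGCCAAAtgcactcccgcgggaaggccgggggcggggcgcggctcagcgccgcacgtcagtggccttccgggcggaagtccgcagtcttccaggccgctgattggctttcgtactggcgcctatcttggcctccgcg
Uhrf1, chr17:56304113-56304312, plus strand: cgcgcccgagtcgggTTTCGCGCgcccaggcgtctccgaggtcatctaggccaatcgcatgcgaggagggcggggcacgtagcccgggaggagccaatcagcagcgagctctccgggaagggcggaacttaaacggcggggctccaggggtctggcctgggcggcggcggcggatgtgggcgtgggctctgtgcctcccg
Rrm2, chr12:24708054-24708253, plus strand: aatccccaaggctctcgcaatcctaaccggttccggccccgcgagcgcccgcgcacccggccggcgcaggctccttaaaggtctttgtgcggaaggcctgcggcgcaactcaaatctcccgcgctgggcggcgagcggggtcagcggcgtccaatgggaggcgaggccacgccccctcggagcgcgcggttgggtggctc

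In Mcm5 and Mcm6, words on opposite strands overlap, and Mcm6 has another word closer to the start. Rrm2 has none, which says only that these letters are not in this window. The 12 genes with a word were Cdc6, Cdt1, Lig1, Mcm3, Mcm5, Mcm6, Mcm7, Orc1, Pola1, Pold1, Rfc3 and Uhrf1. Their median change with LPS was -1.94, and that of the 23 matched genes without one was -2.0. The CCAAT box, searched on both strands, occurred in 23 of 40 entries (57.5%) and in 37.4% of all promoters. The cell cycle homology words TTTGAA and TTCGAA occurred in 5 of 40 (12.5%) and in 19.2%. A match is a description of letters, not a bound site.

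**Figure D2:**
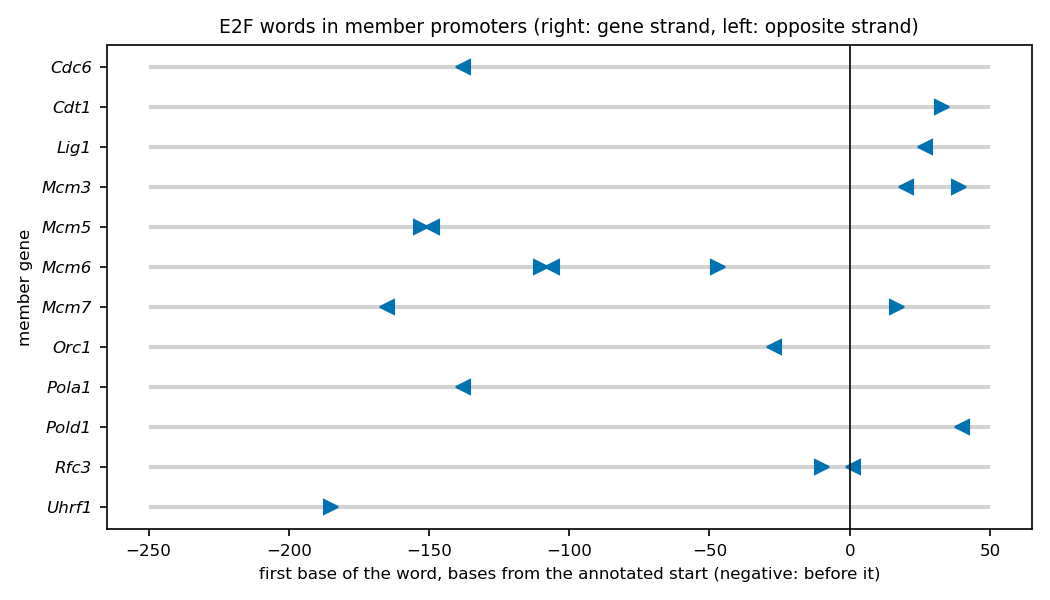
Each line is the window of one of the 12 genes with an E2F word, from 250 bases before the annotated start to 50 after it, and each triangle is a word, pointing right on the gene's strand and left on the opposite one. Mcm5 and Mcm6 have overlapping pairs before the start, while those of Mcm3, Cdt1, Lig1 and Pold1 lie after it.

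Of the origin licensing genes, Orc6, Cdc6 and Cdt1 fell. Orc1, the largest subunit of the origin recognition complex, was at 4.14, 4.87 and 3.79 untreated and 0.296, 0.778 and 0.982 after LPS, and since it passed the filter through the untreated group alone, its test is not given. Orc6, its smallest subunit, was at 20.4, 22.2 and 19.8 and then 3.83, 6.59 and 6.80 (-1.72, SE 0.17, limma adjusted p = 5.76e-06). In Orc6 every LPS library lay below every untreated one. Cdc6, which loads the helicase with the complex, was at 4.46, 4.74 and 3.76 untreated and 0.574, 1.35 and 1.44 with LPS (-1.35, SE 0.16, limma adjusted p = 3.38e-05). Its partner Cdt1 was at 10.0, 13.4 and 9.97, then 3.15, 4.64 and 4.97 (-1.21, SE 0.17, limma adjusted p = 9.80e-05). The groups were apart in both, with LPS replicate 1 lowest.

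All 6 subunits of the MCM helicase fell, over a narrow range of -2.39 to -1.92. Mcm6 (chromosome 1, 128331590 to 128359664 in GRCm38) was the highest of the 6 per length untreated, at 80.2, 93.1 and 82.9, and stood at 12.1, 29.2 and 29.0 after LPS (-1.92, SE 0.27, limma adjusted p = 0.000114). Mcm2 was at 25.6, 26.5 and 21.4 and then 2.02, 5.61 and 7.08 (-2.22, SE 0.29, limma adjusted p = 5.18e-05). Both genes were lowest in replicate 1 and their groups were apart. Mcm5, whose promoter carries overlapping E2F words, was at 55, 55.1 and 49.2 untreated and 5.19, 14.4 and 15.5 with LPS (-2.22, SE 0.31, limma adjusted p = 8.78e-05). Mcm7, which shares exon bases with Ap4m1 and Cops6, was at 38.1, 39.4 and 39.9, then 2.98, 9.22 and 9.87 (-2.39, SE 0.32, limma adjusted p = 6.71e-05). Replicates 2 and 3 of LPS lay close together in these subunits, and replicate 1 below them.

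The helicase activators fell in 4 of 4 cases, unevenly. Cdc45, which joins the MCM ring to form the active helicase, was at 25.6, 26.9 and 22.4 untreated and 1.68, 4.28 and 4.61 after LPS (-2.59, SE 0.24, limma adjusted p = 4.63e-06). Mcm10, needed to start unwinding, was at 13.8, 14.3 and 12.8, then 0.658, 2.25 and 2.90 (-2.41, SE 0.27, limma adjusted p = 1.80e-05). Gins2, a GINS subunit, was at 12.5, 13.2 and 12.1, then 5.91, 6.75 and 7.44 (-0.82, SE 0.10, limma adjusted p = 2.27e-05). Gins2 thus kept the largest part of its level among the 4, with groups still apart; its exons overlap Gse1.

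Polymerase and primase genes fell in 6 of 6 cases. Pola1 (chromosome X, 93304767 to 93632155), the catalytic subunit that starts each new strand, was at 8.75, 13.0 and 12.7 untreated and 0.316, 0.896 and 1.41 after LPS (-2.76, SE 0.21, limma adjusted p = 8.34e-07). Prim1, which makes the RNA primers, was at 16.2, 18.2 and 16.9, then 1.52, 3.39 and 4.13 (-2.23, SE 0.22, limma adjusted p = 7.22e-06). Pola1 had the third largest fall of the 42 genes. Pold1, of the lagging-strand polymerase, was at 12.8, 19.3 and 16.6, then 2.66, 5.27 and 6.92 (-1.59, SE 0.24, limma adjusted p = 0.00018). Pole, of the leading-strand polymerase, was at 7.27, 10.6 and 9.18, then 0.258, 1.29 and 1.5 (-2.36, SE 0.25, limma adjusted p = 1.03e-05). All their LPS libraries lay below all untreated ones.

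Clamp and loader genes fell in 4 of 6 cases. Pcna (chromosome 2, 132249162 to 132253314), the sliding clamp, had the highest value per length of the 42 genes, at 362, 334 and 329.9 untreated and 69.4, 86.4 and 102 after LPS (-2.0, SE 0.12, limma adjusted p = 1.19e-07). Rfc1, the large subunit of the clamp loader, was at 18.9, 23.9 and 22.5, then 7.73, 10.6 and 12.2 (-1.04, SE 0.14, limma adjusted p = 7.04e-05). Pcna and Rfc1 had groups apart, and Rfc2 and Rfc3 also fell. Rfc4 was at 34.2, 20.1 and 17.3 untreated and 19.8, 4.90 and 20.7 with LPS (-0.79, SE 0.59, limma adjusted p = 0.27). Rfc5 was at 25.5, 16.5 and 22.6, then 9.51, 14.1 and 21 (-0.55, SE 0.25, limma adjusted p = 0.0793). Both overlapped between groups and jumped between libraries of a group; Rfc4 shares exon bases with Eif4a2 and Rfc5 with Wsb2. Without untreated replicate 2 or LPS replicate 3, Rfc5 passed (-0.72 and -0.82).

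Single-strand binding and Okazaki fragment genes fell in 5 of 5 cases. Rpa1, the large subunit of the protein that coats unwound DNA, was at 27.8, 27.5 and 26.2 untreated and 5.04, 8.05 and 8.14 after LPS (-1.83, SE 0.15, limma adjusted p = 1.18e-06). Rpa2 was at 24.2, 23.8 and 21.6, then 2.97, 5.78 and 7.23 (-2.0, SE 0.22, limma adjusted p = 1.61e-05). Both had groups apart. Lig1, the ligase that joins fragments, was at 30.6, 33.0 and 32.1, then 2.43, 7.19 and 7.52 (-2.41, SE 0.28, limma adjusted p = 2.29e-05). Fen1, the nuclease that trims flaps, was at 3.97, 3.97 and 4.26, then 0.583, 1.37 and 1.18 (-1.33, SE 0.13, limma adjusted p = 7.85e-06). The groups were apart in both, but Fen1 shares 1909 exon bases with Gm10143, which had 5.98 to 40.0 across libraries, so its level is uncertain.

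Nucleotide supply had the deepest falls. Rrm2 (chromosome 12, 24708241 to 24714146), the small subunit of ribonucleotide reductase that rises in S phase, was at 53.3, 57.7 and 55.9 untreated and 1.99, 5.0 and 4.01 after LPS. Its means were 55.6 ± 2.23 and 3.67 ± 1.54 (SD, n = 3), and its change was the largest of the 42 (-3.66, SE 0.26, limma adjusted p = 5.40e-07). Rrm1, the large subunit, was at 52.0, 53.9 and 52.2, then 2.46, 5.99 and 6.66 (-3.24, SE 0.25, limma adjusted p = 8.76e-07). Every LPS library of both subunits lay far below the untreated ones. Tyms, which makes thymidylate, was at 17.2, 9.81 and 11.4, then 1.5, 1.63 and 1.46 (-2.41, SE 0.16, limma adjusted p = 3.21e-07). Dut, which keeps uracil out of DNA, was at 10.2, 14.9 and 10.1, then 0.995, 1.59 and 1.90 (-2.35, SE 0.18, limma adjusted p = 9.31e-07). Tk1, the S-phase thymidine kinase, was at 69.9, 19.7 and 57.9, then 2.69, 4.35 and 23.7 (-2.49, SE 1.04, limma adjusted p = 0.0574). Untreated replicate 2 of Tk1 lay below LPS replicate 3, and the call was made without either of these libraries.

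Among cell cycle genes, the E2F factor stood apart from the cyclins. E2f1, an activating member of the family, was at 10.2, 9.64 and 8.62 untreated and 8.32, 8.73 and 7.59 after LPS (-0.18, SE 0.09, limma adjusted p = 0.10). Its groups overlapped, and its change was the smallest of the 42. Ccne1, a cyclin of S-phase entry, was at 15.2, 15.3 and 12.7, then 2.15, 4.89 and 3.67 (-1.80, SE 0.21, limma adjusted p = 2.15e-05). Ccne2 was at 10.3, 14.1 and 12.4, then 0.796, 1.84 and 1.23 (-2.55, SE 0.18, limma adjusted p = 4.61e-07). Both cyclins had groups apart. The 3 chromatin genes fell: Uhrf1 (chromosome 17, 56303321 to 56323486), which carries DNA methylation to new strands, was at 27.9, 33.6 and 28.3, then 1.64, 5.85 and 5.52 (-2.65, SE 0.32, limma adjusted p = 2.83e-05). Chaf1b, of the histone chaperone behind the fork, was at 22.1, 20.9 and 21.3, then 1.72, 4.85 and 5.44 (-2.26, SE 0.25, limma adjusted p = 1.87e-05). All 38 calls held when each library was left out in turn.

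**Figure D3:**
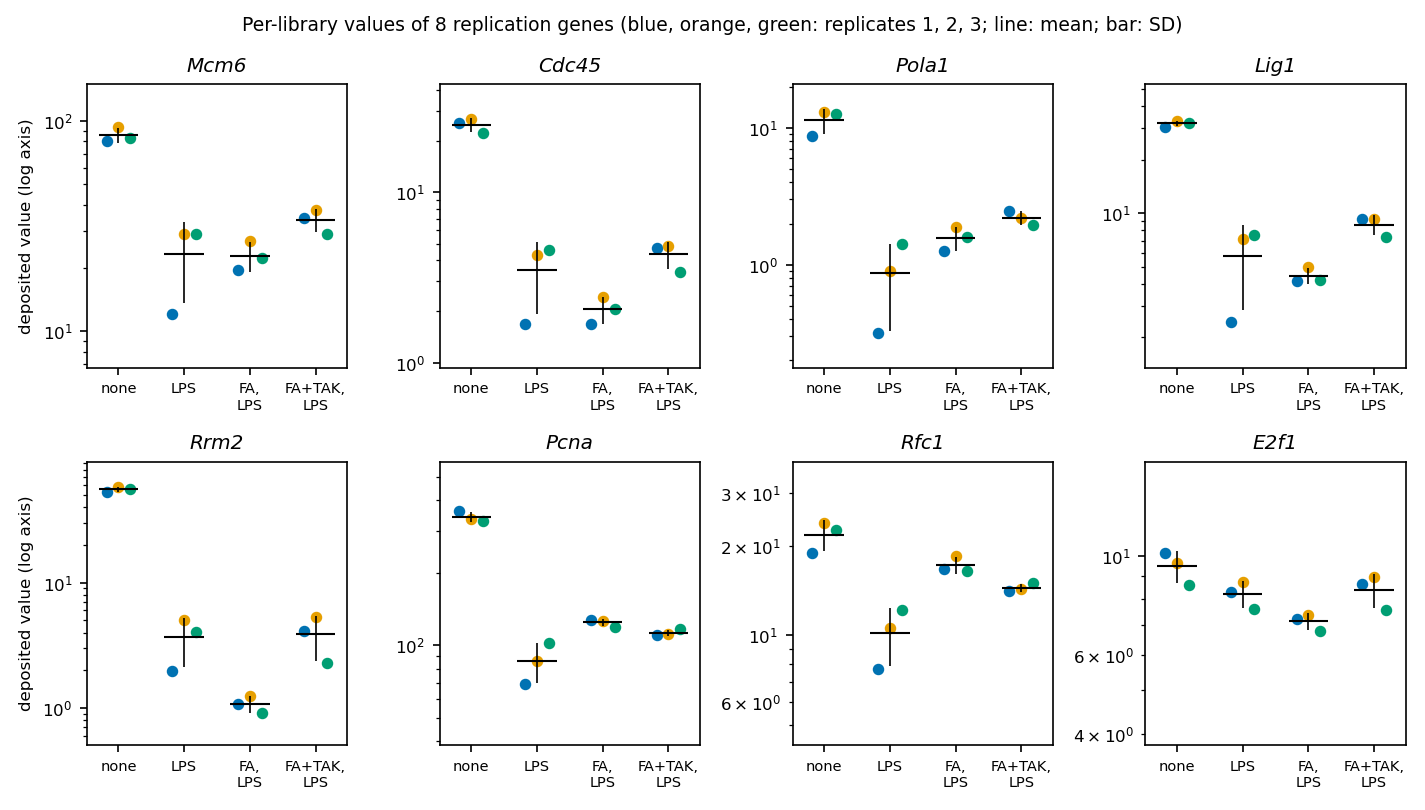
Deposited values on log axes of 8 of the genes, with each library a point (blue, orange and green for replicates 1, 2 and 3), the group mean a line and the SD a bar. E2f1 stays between 6.79 and 10.2 in all groups, Rrm2 is lowest with fatty acid and LPS, and Pcna and Rfc1 are lowest with LPS alone.

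Related genes moved alike in part. Of all genes tested 47.9% were lower with LPS and 13.8% higher, and with scaling 25.8% and 28.4%. Of 15 other licensing and firing genes tested, 10 were lower with LPS and 1, Orc4, was higher (0.61). Of 15 other polymerase and fork genes 14 were lower, with a median of -1.39. Of 24 other nucleotide genes 16 were lower and 2 higher, with a median of -0.64, and with scaling 10 and 5. The 2 that rose were Cmpk2, a mitochondrial nucleotide kinase, and Samhd1, which breaks down deoxynucleotides. Cmpk2 was at 0.188, 0.144 and 0.247 untreated and 5.38, 15.4 and 26.9 after LPS. It was under 1 in every untreated library and passed the filter through treated groups alone, so its test is not given. Samhd1 was at 41.1, 41.1 and 45.5, then 72.3, 147 and 177 (1.52, SE 0.26, limma adjusted p = 0.000391), so its groups did not overlap. Rrm2b, the reductase subunit used outside S phase, was at 2.58, 1.77 and 1.28, then 2.19, 1.84 and 1.67, without passing (0.03, SE 0.16, limma adjusted p = 0.88). Of 26 E2F and cell cycle control genes 20 were lower and 0 higher, and with scaling 17 and 2. Cdkn1a, an inhibitor of cyclin-dependent kinases, was at 27.8, 31.6 and 22.5 untreated and 31.5, 30.6 and 20.7 with LPS (0.00, SE 0.45, limma adjusted p = 0.99). All 10 mitosis genes were lower, with a median of -3.73, and their summed value was 359.8 to 431.2 untreated and 8.83 to 15.0 with LPS.

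Markers of other cells also moved with LPS. Of all genes tested 13.8% were higher and 47.9% lower. The summed value of 8 stromal markers was 7.85 to 15.8 untreated and 24.9 to 54.8 with LPS, 5 of the 5 tested were higher, and Lum was at 0 in both groups. That of 7 neutrophil markers was 15.6 to 18.5 and 19.1 to 34.8, with 2 of the 4 tested higher and Ly6g at 0 with LPS. That of 8 lymphoid markers was 1.99 to 2.54 and 0.0511 to 0.357, with the 1 tested lower (-1.39) and Cd3e, Cd3g and Cd8a at 0 in both groups. In every untreated library 4 of the 8 stromal and 4 of the 7 neutrophil markers were under 1. At least 1 tested gene of each of these 2 lists therefore passed the filter through treated groups alone. All 8 lymphoid markers were under 1 in every library with LPS alone. The 1 progenitor marker tested, Cd48, was lower (-0.23), but with scaling it did not pass. Their part in the result was not tested.

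Fatty acid before LPS, against LPS alone, moved few of the genes, and in both directions. At a limma adjusted p under 0.05, 3 of the 42 were higher and 2 lower, where 21.8% of genes tested were higher and 15.3% lower (37.2% either way). The median over the 42 was -0.09, and over all genes 0.06. The 3 that rose were the clamp Pcna, the clamp loader subunit Rfc1 and the single-strand binding subunit Rpa3. Pcna was at 69.4, 86.4 and 102 with LPS alone and 127, 127 and 119.6 with fatty acid (0.55, SE 0.12, limma adjusted p = 0.00538). Rfc1 was at 7.73, 10.6 and 12.2, then 16.7, 18.5 and 16.4 (0.72, SE 0.14, limma adjusted p = 0.00324). Rpa3, the smallest subunit of the single-strand binding protein, was at 3.19, 3.24 and 4.30, then 6.20, 6.10 and 5.70 (0.62, SE 0.12, limma adjusted p = 0.00318). In all 3, every fatty acid library lay above every library with LPS alone. Over the 42 genes the groups were apart and higher in 4 and apart and lower in 3, against 29.8% and 21.4% of genes tested.

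The 2 that fell were Rrm2 and Tyms. Rrm2 was at 1.99, 5.0 and 4.01 with LPS alone and 1.08, 1.25 and 0.911 with fatty acid (-1.11, SE 0.26, limma adjusted p = 0.00825). Tyms was at 1.5, 1.63 and 1.46, then 0.668, 0.660 and 0.495 (-0.66, SE 0.16, limma adjusted p = 0.00994). Their groups did not overlap, and all 5 calls held with each library left out. Rrm1, the partner of Rrm2, was at 2.46, 5.99 and 6.66, then 4.80, 6.47 and 5.41 and did not pass (0.20, SE 0.25, limma adjusted p = 0.56). Uhrf1 was at 1.64, 5.85 and 5.52 with LPS alone and 1.54, 2.09 and 1.74 with fatty acid (-0.82, SE 0.32, limma adjusted p = 0.0637). Its fatty acid libraries were close to each other, and LPS replicate 1 lay among them. Tk1, at 2.69, 4.35 and 23.7, then 28.4, 3.47 and 29.0, varied widely within groups and did not pass (1.01, SE 1.04, limma adjusted p = 0.47). Gins1, Mcm7 and Pola2 had the smallest changes, at 0.02, -0.03 and -0.05.

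The count of lower genes turned on LPS replicate 1. Against untreated libraries the median of the 42 genes was -2.49 in that replicate, and -1.78 and -1.6 in replicates 2 and 3. Without it, 3 of the 42 genes were higher and 18 lower with fatty acid, where 18.3% of genes tested were higher and 13.8% lower, and the median was -0.33. Uhrf1 was then lower (-1.26, SE 0.18, limma adjusted p = 0.00139), as was Cdc45 (-0.84, SE 0.15, limma adjusted p = 0.0029). The helicase subunits Mcm2, Mcm3, Mcm5 and Mcm7 were at -0.63, -0.43, -0.53 and -0.49. Lig1 was at -0.62, Ccne1 at -0.76 and Pold1 at -0.82, and Pcna, Rfc1 and Rpa3 stayed higher. Whether replicate 1 or the other LPS libraries stand for the condition was not tested.

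Counts for the other genes of the pathway are given beside all genes tested, where 21.8% were higher with fatty acid and 15.3% lower. Of 15 other licensing and firing genes 6 were higher with fatty acid and 0 lower, and of 15 polymerase and fork genes 1 was higher and 1 lower. Of 24 other nucleotide genes 6 were higher and 7 lower. Samhd1 was at 349.8, 396 and 376 with fatty acid, above its LPS values given before (1.59, SE 0.26, limma adjusted p = 0.0015), and Cmpk2 at 76, 60.9 and 56.7 (2.19, SE 0.42, limma adjusted p = 0.00333). Impdh1, of guanine nucleotide synthesis, was at 20.4, 19.2 and 17.6 with LPS alone and 9.93, 9.29 and 8.28 with fatty acid (-0.98, SE 0.11, limma adjusted p = 0.000337). In each of these 3 genes the groups did not overlap. Of 26 E2F and cell cycle control genes 6 were higher and 2 lower, among them Ccnd1, a cyclin of G1, at 1.99, 4.06 and 5.18, then 8.51, 8.03 and 7.42 (0.98, SE 0.23, limma adjusted p = 0.00822). Of 10 mitosis genes 2 were lower, Ccnb1 (-0.24) and Ccnb2 (-0.30). Stromal markers summed to 9.31 to 12.6 with fatty acid, with Lum and Thy1 at 0, neutrophil markers to 43.0 to 49.1 and lymphoid markers to 2.03 to 2.59, with the 1 lymphoid marker tested higher (1.39). Cd48 was higher (0.26), but not with scaling. Their part was not tested.

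TAK242 beside the fatty acid, against fatty acid without it, changed 1 of the 42 genes, which was higher, where 3.01% of genes tested were higher and 1.68% lower. Rrm2 was at 1.08, 1.25 and 0.911 without TAK242 and 4.10, 5.32 and 2.28 with it (1.19, SE 0.26, limma adjusted p = 0.0339). Its groups did not overlap, but the call was lost without any of 5 of the 6 libraries (limma adjusted p 0.0713 to 0.14) and with no filter on low values (0.0872). This comparison and the one before share the fatty acid libraries, so opposite signs in the 2 are not independent.

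Most of the genes nevertheless lay slightly higher with TAK242. The change was above 0 in 36 of 42, with a median of 0.38 where that of all genes tested was 0.00. Groups were apart and higher in 27 of the 42 genes and apart and lower in 3, where 18.1% and 18.7% of genes tested were. At an unadjusted p under 0.05 there were 16 genes, against 23.1% of all. Uhrf1 was at 1.54, 2.09 and 1.74 without and 6.13, 6.03 and 3.60 with TAK242, the second largest change (1.14, SE 0.32, limma adjusted p = 0.0673). Lig1 was at 4.18, 4.95 and 4.19, then 9.24, 9.25 and 7.34 (0.82, SE 0.28, limma adjusted p = 0.12). Cdc45 was at 1.69, 2.42 and 2.06, then 4.72, 4.86 and 3.41 (0.80, SE 0.24, limma adjusted p = 0.0892). In these 3 genes every library with TAK242 lay above every one without, and the adjusted p missed the threshold. Ccne1 was at 2.02, 2.46 and 1.81, then 4.45, 4.77 and 3.22 (0.72, SE 0.21, limma adjusted p = 0.0743). Mcm6 was at 19.5, 26.8 and 22.4, then 34.7, 37.8 and 29.2 (0.55, SE 0.27, limma adjusted p = 0.26). With spread estimated from the 6 libraries compared alone, 12 of the 42 genes were called, all higher, where 5.99% of genes tested were higher and 4.60% lower. Prim2, Rpa1 and Rfc2 moved least, at 0.03, 0.06 and -0.07.

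The 3 genes that were higher with fatty acid had changes below 0 here. Pcna was at 127, 127 and 119.6 without and 110.1, 111 and 117 with TAK242 (-0.14, SE 0.12, limma adjusted p = 0.49), and Rfc1 at 16.7, 18.5 and 16.4, then 14.1, 14.4 and 15.0 (-0.23, SE 0.14, limma adjusted p = 0.35). Rpa3 was at -0.18, and none of the 3 passed. Among related genes, Impdh1 was at 19.5, 21 and 16.6 (0.98, SE 0.11, limma adjusted p = 0.00179) and Shmt1, of one-carbon metabolism, at 1.85, 4.73 and 1.90 without and 7.77, 12.1 and 10.4 with TAK242 (1.6, SE 0.34, limma adjusted p = 0.0315). Of 10 mitosis genes 2 were higher, Bub1 (0.62) and Ccnb1 (0.41). None of the 15 licensing and firing, 15 polymerase and fork or 26 cell cycle control genes passed, while with scaling 1 fork gene was higher and 1 control gene lower. Of all genes tested 3.01% were higher and 1.68% lower, and with scaling 4.4% and 2.76%. Stromal markers summed to 20.3 to 24.7 with TAK242, with 2 of the 5 tested higher. Neutrophil markers summed to 31.9 to 33.4, with none of the 4 tested past the threshold, and lymphoid markers to 0.579 to 0.947, with the 1 tested lower (-0.86). Their part was not tested.

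**Figure D4:**
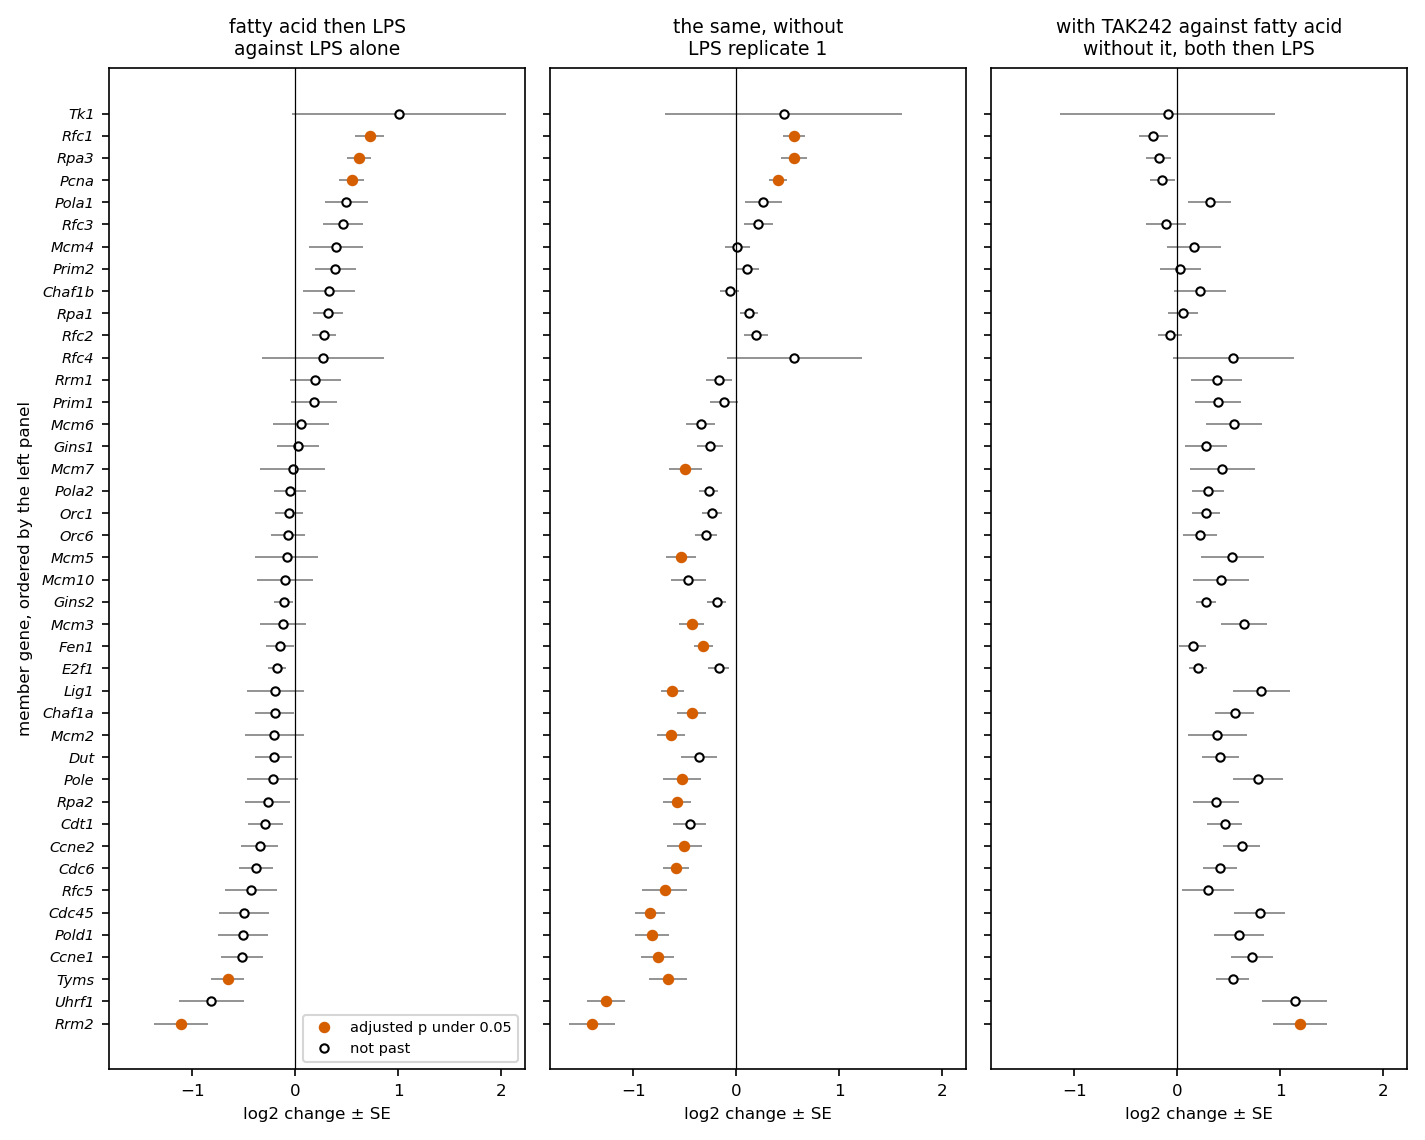
Log2 changes with SE of the 42 genes for fatty acid then LPS against LPS alone, for the same without LPS replicate 1, and for added TAK242; orange points have a limma adjusted p under 0.05. Orange points number 5, 21 and 1, and most points of the right panel lie to the right of 0 except Pcna, Rfc1, Rpa3, Rfc2, Rfc3 and Tk1.

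Against LPS alone, fatty acid with TAK242 gave 1 higher gene of 42, Pola1 (0.81, SE 0.21, limma adjusted p = 0.0493), where 4.05% of genes tested were higher. Pola1 was at 0.316, 0.896 and 1.41 with LPS alone and 2.46, 2.18 and 1.95 with fatty acid and TAK242, with groups apart. The call was lost without 5 of the 6 libraries compared, and 6 genes were called without LPS replicate 3, where 17% of genes tested were. Of the 42 changes 40 were above 0, with a median of 0.32 (all genes 0.07), and without LPS replicate 1 the median was 0.07. Tk1 and Rfc4 had values as large (0.91 and 0.81) with wide errors, and Fen1, E2f1 and Cdc6 were at 0.00, 0.02 and 0.04. Rrm2 overlapped between these groups (0.08, SE 0.26, limma adjusted p = 0.87).

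All 3 treated groups stayed far below untreated cells, with which they share the control libraries. Fatty acid then LPS had 39 genes lower and 0 higher (44.9% of genes tested lower), with a median of -1.90, and TAK242 with it had 39 and 0 (43.9%), with a median of -1.57. Without Orc1 both counts were 38 of 41, and with scaling both were 37 of 42. Rrm2 was at -3.66 with LPS alone, -4.77 with fatty acid and -3.58 with TAK242 added. Uhrf1 was at -2.65, -3.47 and -2.33, and Cdc45 at -2.59, -3.09 and -2.29. Rfc1 was at -1.04, -0.32 and -0.55, so it stood closest to untreated cells with fatty acid, where it did not pass (limma adjusted p = 0.0697). Tyms was at -2.41, -3.07 and -2.53, and Rrm1 at -3.24, -3.04 and -2.66. E2f1 was at -0.18, -0.36 and -0.16, and passed with fatty acid (limma adjusted p = 0.00506), but with scaling it was at -0.05 and did not. Rfc4, at -0.79, -0.52 and 0.03, and Tk1 passed in none of the 3.

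In the Western diet table, 40 of the 42 genes were lowest in the 3 libraries whose LPS-response genes were high, whatever the label. The others were Rfc1 and Rfc4. How many of all genes tested were lowest there was not counted. In these 3 libraries 67.1%, 64.8% and 62.3% of genes tested lay below every chow library. The 40 are therefore not shown to be particular to this set. Ccl5, a chemokine gene induced by LPS, was at 2.06, 2.38 and 1.57 in untreated chow libraries 4 to 6 and at 7846, 13.7 and 10973 in libraries labelled Western diet without LPS. In libraries labelled Western diet with LPS it was at 0.463, 10.5 and 6905. Acod1, which makes itaconate, was at 0.978, 0.627 and 0.611, then 382, 2.54 and 331, then 0.490, 0.766 and 198 in the same order. Replicates 1 and 3 without LPS were thus high, and replicates 1 and 2 with LPS low, against their labels.

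Markers of other cells differed between these libraries too. In the same order, neutrophil markers summed to 13.5, 13.3 and 10.9, then 43.5, 5.77 and 57.2, then 14.6, 17.4 and 27.0, and stromal markers to 0.230, 0.690 and 1.19, then 7.97, 4.14 and 7.94, then 2.93, 2.03 and 3.40. Dendritic markers summed to 0.0949, 0.124 and 0.158, then 2.69, 0.0798 and 3.69, then 0.0891, 0.0836 and 0.671, and lymphoid markers to 3.12, 1.90 and 2.37, then 0.193, 1.17 and 0.311, then 1.21, 1.99 and 1.61. Neutrophil and dendritic sums were highest in the 3 libraries with high Ccl5, and stromal sums were above chow in all 6 libraries labelled Western diet. Macrophage markers summed to 11993, 10176 and 10924, then 7499, 15382 and 5793, then 10331, 11619 and 9436, highest in replicate 2 labelled without LPS. Their part in the results was not tested.

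Of the 42 genes, all 42 lay below every chow library in replicates 1 and 3 labelled Western diet without LPS, against 67.1% and 64.8% of genes tested, and 12 did in replicate 2 (28.5%). In libraries labelled with LPS the counts were 37, 35 and 42, against 41.9%, 43.1% and 62.3%. Median changes from the chow mean were -3.24, -0.01 and -3.23 without LPS and -0.50, -0.56 and -1.66 with LPS by label. Rrm2 was at 63.8, 62.8 and 66.6 in chow libraries, at 0.770, 55.6 and 0.482 labelled Western diet without LPS, and at 45.5, 40.9 and 4.99 labelled with LPS. Mcm6 was at 134, 163 and 172, then 11.2, 166 and 8.56, then 85.5, 81.8 and 47.7. In both genes the 3 libraries with high Ccl5 and Acod1 had the lowest values. Pcna was at 298, 352 and 330.4, then 115, 332 and 109, then 183, 300.0 and 123. Uhrf1 was at 43.8, 60.6 and 44.4, then 0.860, 46.5 and 0.751, then 28.3, 25.0 and 8.42. In both genes the same 3 libraries were lowest. Replicate 2 labelled without LPS lay within the chow range in Pcna, Uhrf1 and Mcm6 and below it in Rrm2.

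E2f1, Rfc4, Rfc5 and Tk1, which did not pass with LPS in the fatty acid table, varied here too. E2f1 was at 13.1, 16.5 and 12.2 in chow libraries, 6.49, 13.9 and 4.91 labelled Western diet without LPS and 10.0, 11.4 and 9.79 labelled with LPS. Rfc4 was at 42.3, 29.1 and 44.2, then 3.44, 53.6 and 2.72, then 19.5, 31.7 and 23.0. Tk1 was at 112, 96.4 and 106, then 1.42, 65.7 and 1.10, then 55.1, 58.9 and 7.32. Rfc5 was at 22.2, 21.6 and 14.3, then 7.55, 22.1 and 11.3, then 26.3, 18.9 and 9.21. E2f1, Rfc4 and Tk1 were lowest in replicates 1 and 3 labelled without LPS. Rfc5 was lowest in replicate 1 labelled without LPS and replicate 3 labelled with LPS. Samhd1, outside the 42, was at 43.8, 35.4 and 40.5, then 364, 45.5 and 246, then 37.6, 34.3 and 266, high where the replication genes were low. The 10 mitosis genes summed to 257.8 to 398.2 in chow libraries, 6.06 to 278.5 labelled Western diet without LPS and 29.2 to 328.8 labelled with LPS.

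**Figure D5:**
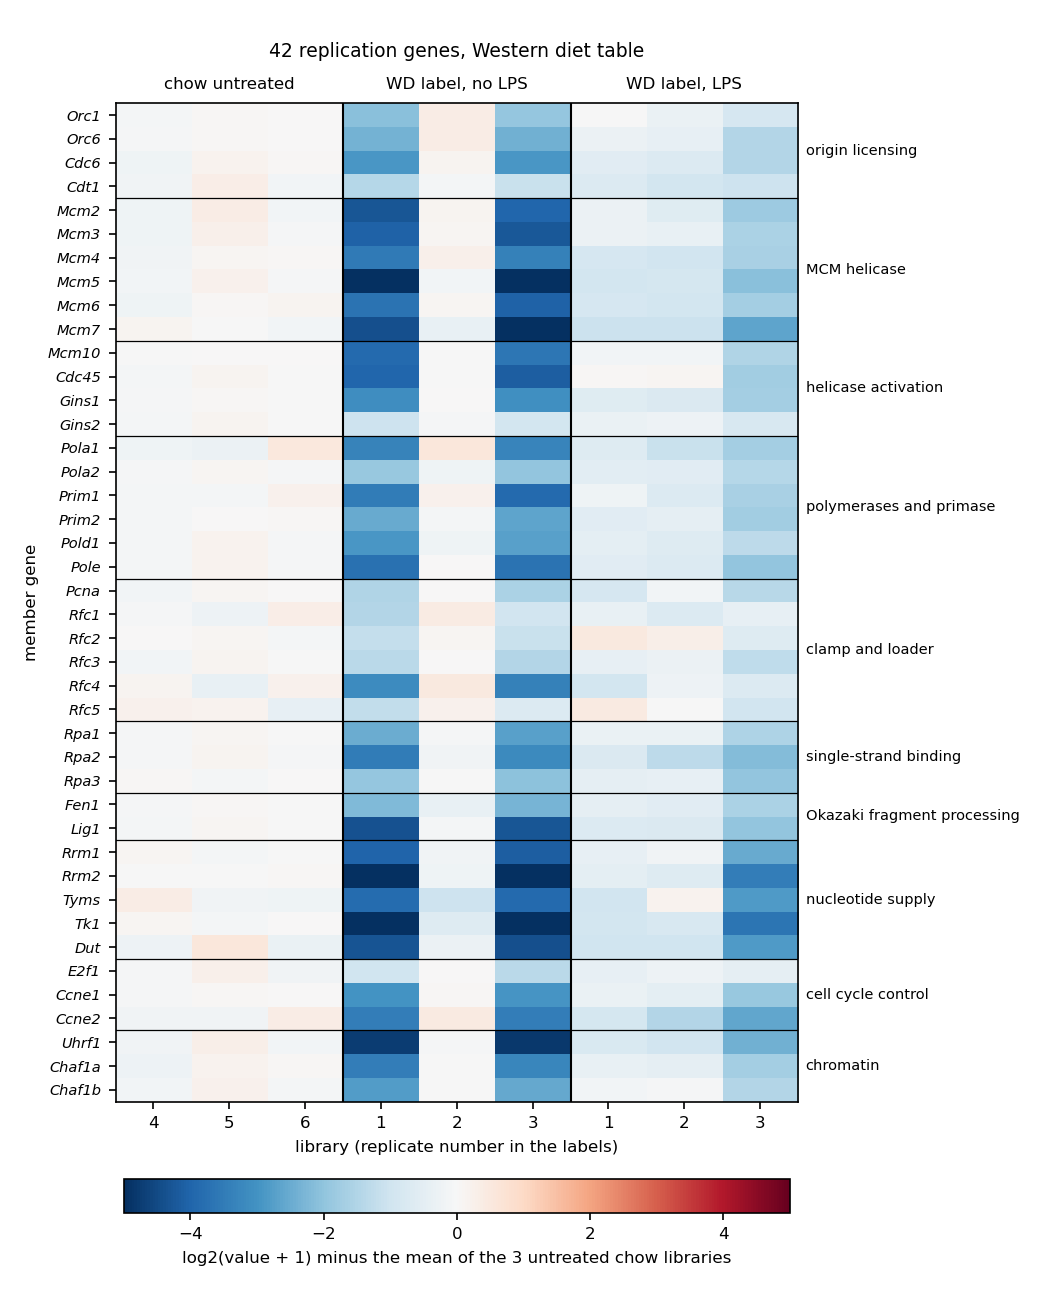
Rows are the 42 genes by role and columns the 9 libraries of the Western diet table, coloured by log2(value + 1) minus the mean of chow libraries 4 to 6, with the darkest blue at -5 or below. Replicates 1 and 3 labelled Western diet without LPS are darkest (medians -3.24 and -3.23), and replicate 2 is near the chow level (-0.01).

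By label, no gene of the 42 passed in either Western diet comparison with limma. Western diet without LPS against chow gave 0 calls (0.232% of genes tested were called) and 31 genes at an unadjusted p under 0.05 (27.3% of all), with a median of -2.03. Tk1, Rrm2 and Mcm7 had the largest changes (-3.92, -3.63 and -3.41) and Rfc5, Rfc1 and Gins2 the smallest (-0.57, -0.68 and -0.68). Western diet with against without LPS gave 0 calls (0.958% of all) and 0 at an unadjusted p under 0.05 (17.2% of all). All 42 values were above 0, with a median of 1.08. Cdc45 was at 2.18, Tk1 at 2.12 and Rrm2 at 2.10, and Cdt1, Rfc1 and Gins2 at 0.01, 0.19 and 0.21.

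These counts rest on single libraries. Without replicate 2 labelled Western diet without LPS, 41 genes were lower than in chow (44.4% of genes tested), and 36 were higher with than without LPS by label (29.8% of genes tested). Without the 4 libraries against their label, the median change from chow was -0.01. With LPS against without, the median was then -1.73, the opposite sign to the comparison by label. Sizes ran from -3.24 in Rrm2 to -0.47 in E2f1. That fit has a single library in each Western diet group and assumes it varies like the chow libraries. Only sizes are therefore given for it. Diet, LPS and the identity of these libraries cannot be told apart here.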

How the data were processed

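Values are those the authors deposited in 2 tables of 12 and 9 libraries; per the labels' protocols RNA came from PeqGold lysates. The submitters' processing notes name HISAT2 (2.0.5), Trim Galore (0.4.1), FastQC (0.11.5), CASAVA (1.8.2) and the builds mm9 and mm10, with no roles; the quantification step is not given in the sources used here. No unit is named: the deposited values behave like FPKM, since the smallest steps between values scale with gene length. Rows with displaced entries (36 and 35) were left out. A gene was kept where 3 libraries of a table reached 1 (10476 and 10331 genes). The fit used limma 3.58.1 (R 4.3.3, trend) on log2(value + 1) within each table, all its libraries sharing a spread, with Benjamini-Hochberg adjustment over all genes kept and a threshold of 0.05. Count tests did not apply. The fit was tested on simulated data. Coordinates are as deposited and equal GRCm38 GENCODE M21 for 40 of the 42 genes. The 42 genes, the lists and the markers were chosen with earlier results of these data known. One macrophage marker of the list is not reported here. Named genes were fixed representatives of each role, plus the 3 largest and 3 smallest changes per comparison and members moving against the majority. Alternatives are in the closing section. Tables were handled in pandas 2.3.3 under Python 3.11.15 and drawn with matplotlib 3.10.9.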

Additional observations from a re-analysis of the deposited data

How the results depend on the processing

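Planned settings were no filter, a minimum of 5, a pseudocount of 0.1, only the libraries compared, median-ratio scaling, the replicate block and each library left out; leaving out 4 Western diet libraries was added after seeing the data. The LPS count of 38 lower genes ran from 38 to 40 with a library left out, and the counts of fatty acid and of fatty acid with TAK242 against untreated from 39 to 40 and 38 to 39. Of all genes tested 43% to 47.3%, 39.5% to 44.1% and 38.2% to 42.7% were lower there. Fatty acid against LPS alone gave 5 to 21 with a library left out, where 27.9% to 39% of genes tested were called. The 21 came without LPS replicate 1, where 32.1% were. Adding TAK242 to fatty acid gave 0 with no filter, 2 with a pseudocount of 0.1, 12 with only the 6 libraries and 0 to 1 with a library left out. In the same order 1.09%, 4.89%, 10.6% and 0.601% to 2.91% of genes tested were called. Fatty acid with TAK242 against LPS alone gave 0 with no filter, 0 with a pseudocount of 0.1, 0 with only the 6 libraries and 0 to 6 with a library left out. For all genes tested the shares were 0.348%, 5.57%, 0.0191% and 0.00955% to 17%. The Western diet counts ran from 0 to 41 against chow and 0 to 36 with against without LPS, with a library left out. Of all genes tested 0.0774% to 56.5% and 0.174% to 39.6% were called there. Leaving out the 4 Western diet libraries, picked by their LPS-response genes, left 1 library in each Western diet group. A threshold there rests on the spread of the chow libraries alone, so only sizes are given. With against without LPS by label, all 42 genes then reversed from above 0 to below it. For 37 of them the sizes were as follows: Rrm2 -3.24, Ccne2 -3.04, Tk1 -3.00, Dut -2.54, Rrm1 -2.36, Uhrf1 -2.33, Pola1 -2.30, Mcm7 -2.27, Pole -1.98, Mcm5 -1.96, Rpa2 -1.96, Mcm2 -1.95, Ccne1 -1.94, Rpa3 -1.93, Mcm4 -1.88, Lig1 -1.88, Prim1 -1.86, Orc6 -1.85, Tyms -1.80, Mcm6 -1.78, Gins1 -1.74, Cdc45 -1.72, Chaf1a -1.71, Mcm3 -1.67, Prim2 -1.66, Cdc6 -1.62, Mcm10 -1.48, Rpa1 -1.48, Chaf1b -1.46, Pcna -1.43, Rfc3 -1.30, Orc1 -1.22, Fen1 -1.21, Pola2 -1.21, Pold1 -1.09, Gins2 -0.75, Rfc2 -0.74. For the remaining genes they were: Rfc4 -1.19, Rfc5 -1.17, Cdt1 -0.94, Rfc1 -0.80, E2f1 -0.47. Same-numbered replicates did not deviate together throughout in the fatty acid table (correlations -0.081 to 0.2), so the number is not taken as a pairing. Between the Western diet groups the correlations were -0.666, 0.681 and 0.761. Their signs follow which libraries had high LPS-response genes, so they cannot decide whether the numbers are pairs. With the replicate block, 38 genes were called for LPS, 5 for fatty acid, 1 for TAK242, 2 for fatty acid with TAK242 against LPS alone, 40 and 39 against untreated, and 0 for Western diet with against without LPS. In the same order 60.7%, 35.5%, 3.56%, 5.53%, 59.2%, 57.4% and 0% of genes tested were called. Western diet against chow shares no replicate number, so it had no block. No read counts were used, so counting error at low values, such as Orc1 with LPS, is unknown.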
